A study of Homo sapiens with 12 samples.

Results

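The LY6 gene cluster near the long-arm end of chromosome 8 is represented here by 9 genes: PSCA, LY6K, SLURP1, LYPD2, LYNX1, LY6D, GML, LY6E and LY6H, in order along the chromosome. They are 9 of the 62700 gene records of GENCODE version 44 on GRCh38. They were listed by name, with earlier results of these data known. The window of a gene was its body with 20 kb on each side, and every accessible region that touched a window was taken. This gave 28 of the 79177 accessible regions of DU-145 cells and 57 of the 46298 accessible regions of BT-549 cells. A region is an unbroken run of the 100-bp bins that the study kept as open chromatin.

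The data are ATAC-seq, in which a transposase cuts and tags DNA that is not covered by nucleosomes, so that fragment coverage measures how open a site is. DU-145 is a castration-resistant prostate cancer line and BT-549 a triple-negative breast cancer line. Both carried a tetracycline-inducible MUC1 shRNA in a puromycin-selected lentiviral vector, and this was true of the control libraries as well as of the treated ones. Each line was given vehicle (0.1% DMSO) or doxycycline (DOX) for 7 days to silence MUC1, the gene of an oncogenic transmembrane mucin, with 3 libraries per group and 12 in all. The vector held a single hairpin and DOX was given only to cells that carried it, so an action of DOX itself and the silencing of MUC1 cannot be told apart, and MUC1 RNA was not measured by this assay.

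The LY6/uPAR family consists of small, cysteine-rich proteins that fold into finger-like loops. Most are tethered to the outer cell surface by a GPI anchor and a few are secreted. In tumors several of them are known as surface antigens, others bind nicotinic acetylcholine receptors, and LY6E is an interferon-inducible gene with known roles in viral entry and in tumor cell growth.

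The summed bin values of the DU-145 libraries lay between 12370094 and 25232000. In BT-549 they were 9142900 to 13606129 for vehicle but only 2502510 to 3267024 for DOX, so weak sites in the BT-549 DOX libraries rest on few fragments. Chromosome 8 held 4.56% to 4.67% of coverage in the DU-145 libraries and 8.22% to 8.87% in the BT-549 libraries. DNA copy number was not measured. Of the promoters of 6 epithelial markers, 6 were in the DU-145 table and 2 (GRHL2 and ESRP1) in that of BT-549. Those of 5 mesenchymal markers numbered 3 and 5. A promoter region was absent at KLK3 in DU-145, and at ESR1 and PGR in BT-549. Of 3 blood cell markers, PTPRC and CD79A had a promoter region in DU-145 and none had one in BT-549. In bulk libraries, fewer cells with an open site and less opening per cell cannot be told apart.

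Coverage is given below as counts per 1000000 of a library's summed bin values, per kilobase of region (CPM per kb). Changes are log2 fold changes of DOX over vehicle with their standard errors, and adjusted p-values come from the quasi-likelihood test of edgeR, corrected after Benjamini and Hochberg over all regions of the line. A region was called higher or lower at an adjusted p under 0.05. Distances are from the annotated start of LY6E to the center of a region, negative toward the centromere.

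Across the cluster, DOX-treated DU-145 cells lost accessibility at LY6E and little changed elsewhere. In BT-549 cells the largest loss was again at LY6E, while most regions around the other members rose. In DU-145, 2 of 28 regions were higher and 7 lower, beside 37.1% higher and 17.4% lower over all regions of the line. In BT-549, 35 of 57 were higher and 2 lower, beside 12.2% higher and 18.0% lower. The LY6E window held 7 and 8 of these regions, with 6 of the 7 lower regions of DU-145 and both lower regions of BT-549, and its median log2 change in DU-145 was -1.12.

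**Figure D1:**
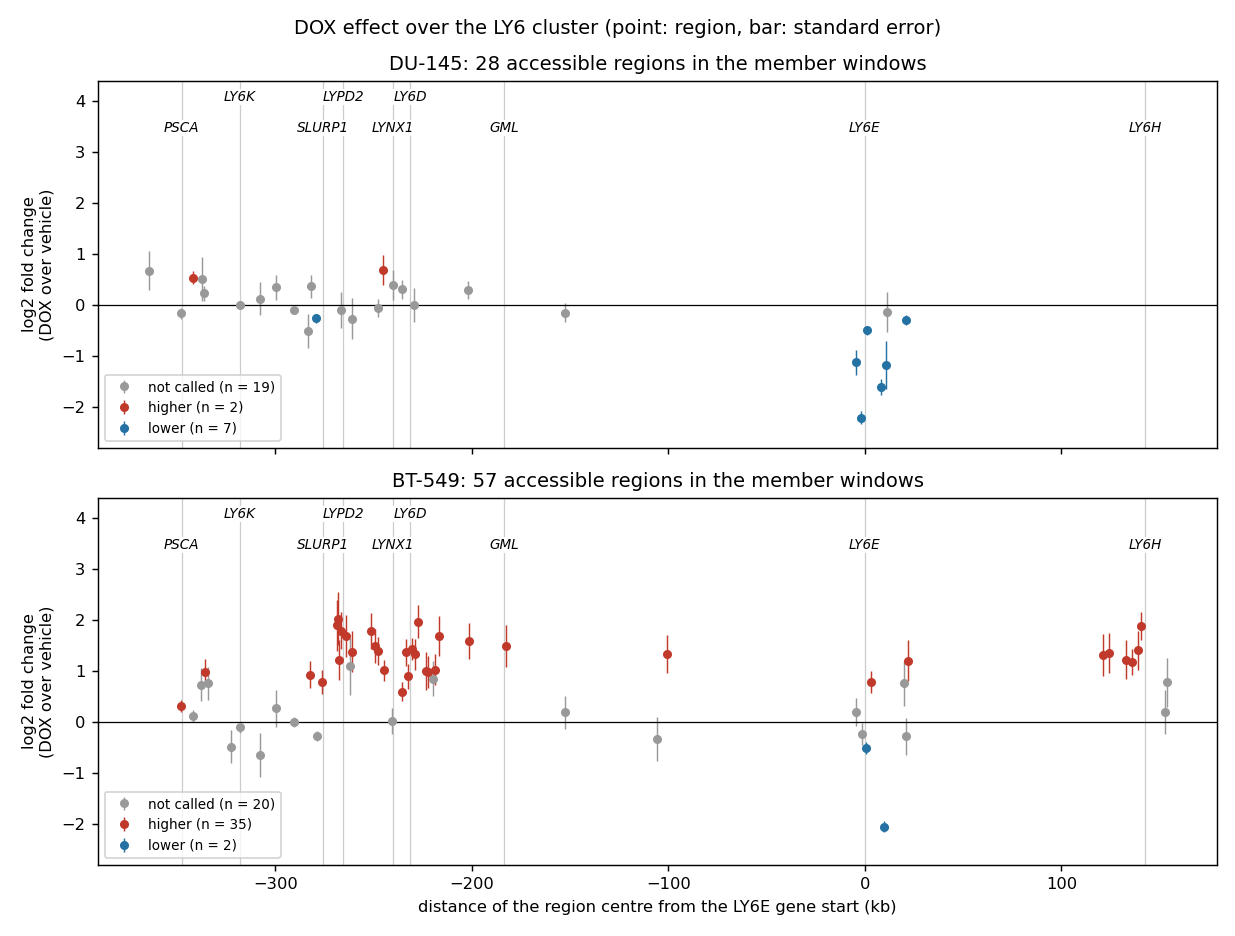
Log2 fold change of DOX over vehicle (vertical axis, bars are standard errors) for each accessible region of the member windows, against its distance from the LY6E start in kb (horizontal axis), with the start of each member as a gray line. In DU-145 the lower regions gather at LY6E, whereas in BT-549 a single strongly lower region at LY6E stands among 35 higher ones.

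The scaling matters for how the rest of the cluster reads. With the summed bin values as library size, the median log2 change over all regions was 0.24 in DU-145 and -0.10 in BT-549. TMM factors moved these medians to 0.05 and 0.00. The calls over all regions were then 23749 higher and 20164 lower in DU-145, against 29363 and 13805, and 7341 higher and 6845 lower in BT-549, against 5642 and 8329. In the cluster windows of DU-145, TMM gave 1 higher and 9 lower and loess offsets 3 higher and 11 lower, so the split there depended on the scaling. In BT-549 these were 37 and 2, and 38 and 3.

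LY6E (chr8:143017982-143023832, plus strand) encodes a GPI-anchored surface protein. Its promoter region closed partly in both lines. In DU-145 the region over the start site (chr8:143017901-143019800) had 24.6, 27.5 and 28.6 CPM per kb in the vehicle libraries and 18.5, 19.7 and 18.9 in the DOX libraries. Each DOX library lay below each vehicle library. The means were 26.9 ± 2.1 and 19.0 ± 0.61 (SD, n = 3 each), a log2 change of -0.50 ± 0.09 (SE, adjusted p = 1.74e-05). In BT-549 the corresponding region (chr8:143017301-143020000) had 32.8, 34.7 and 30.7 CPM per kb with vehicle and 26.2, 23.7 and 19.9 with DOX, again without overlap. The log2 change was -0.50 ± 0.12 (SE, adjusted p = 0.00204), and it rested on a mean of 37.7 fragments per base with vehicle and 6.39 with DOX. An exact two-sided permutation test of these 2 regions gave p = 0.1 in each line, the smallest that 20 arrangements of 3 against 3 libraries allow. The fall was called under each scaling tried, with -0.69 by TMM and -0.39 by loess in DU-145, and -0.40 and -0.59 in BT-549.

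The loss was uneven within the promoter. Of 19 bins in the DU-145 promoter region, 9 passed the test alone, all of them lower and lying 0.72 to 1.62 kb after the start. The first kilobase fell from 33.2 to 26.8 CPM per kb and the second from 22.0 to 11.5. In BT-549, 3 of 27 bins were lower. Over all tested bins, 83619 of 709226 were lower in DU-145 and 27958 of 472935 in BT-549.

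The sites beside the promoter changed more than the promoter, and they differed between the lines. In DU-145 the largest change in the member windows was 1.7 kb before the LY6E start (chr8:143015701-143016800), inside the body of LY6E-DT, a divergent noncoding transcript. This site had 29.9, 31.0 and 31.5 CPM per kb with vehicle and 5.82, 7.03 and 7.04 with DOX. It went from above the promoter's level to about that of the weak sites nearby, with a log2 change of -2.21 ± 0.13 (SE, adjusted p = 2.64e-16), and 11 of its 11 bins were lower. Peaks were still called there in all 3 DOX libraries, with a fold enrichment over background of 10.5 to 15.1 against 55.9 to 68.0 with vehicle. In BT-549 the same site was weaker at the outset, at 16.1 CPM per kb, and stood at 13.7 with DOX (log2 change -0.23 ± 0.22 SE, adjusted p = 0.467, edgeR).

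In BT-549 the loss lay on the other side of the gene. A broad region of 10200 bp (chr8:143022501-143032700) ran from the 3′ part of LY6E across the noncoding gene ENSG00000291308. It had 45.1, 46.2 and 43.6 CPM per kb with vehicle and 12.2, 7.95 and 12.2 with DOX. Its log2 change of -2.05 ± 0.11 (SE, adjusted p = 5.46e-14) was the largest fall in the cluster in that line. Of 102 bins, 53 were lower, between 5.22 and 14.1 kb after the LY6E start. The largest fall was in the slice 8 to 9 kb from the start, where coverage went from 113 to 12.1 CPM per kb. In the slice at 6 to 7 kb coverage went from 114 to 20.6, whereas at 4 to 5 kb it was 11.9 with vehicle and 10.4 with DOX. Peak fold enrichment over the region was 75.5 to 103 with vehicle and 6.59 to 9.31 with DOX. These enrichments were not adjusted for depth, and the DOX libraries of this line were shallower.

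DU-145 had a smaller site within that span (chr8:143025301-143027200, 8.3 kb after the start). It had 8.67, 10.9 and 11.1 CPM per kb with vehicle and 2.78, 4.17 and 3.07 with DOX, and 17 of its 19 bins were lower. Its log2 change was -1.60 ± 0.16 (SE, adjusted p = 1.47e-10). A further site 4.3 kb before the start, also in LY6E-DT, went from 5.68 to 2.51 CPM per kb in DU-145 (log2 change -1.12 ± 0.25 SE, adjusted p = 0.000213). Peaks were called there in 3 vehicle libraries and 1 DOX library. Only areas with a peak in at least 3 replicates were kept, so this site could not have entered without its vehicle libraries. Neither its peak counts nor its fall is therefore independent of that filter. In BT-549 that site stood at 10.6 and 11.9 CPM per kb (log2 change 0.20 ± 0.28 SE, adjusted p = 0.63).

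**Figure D2:**
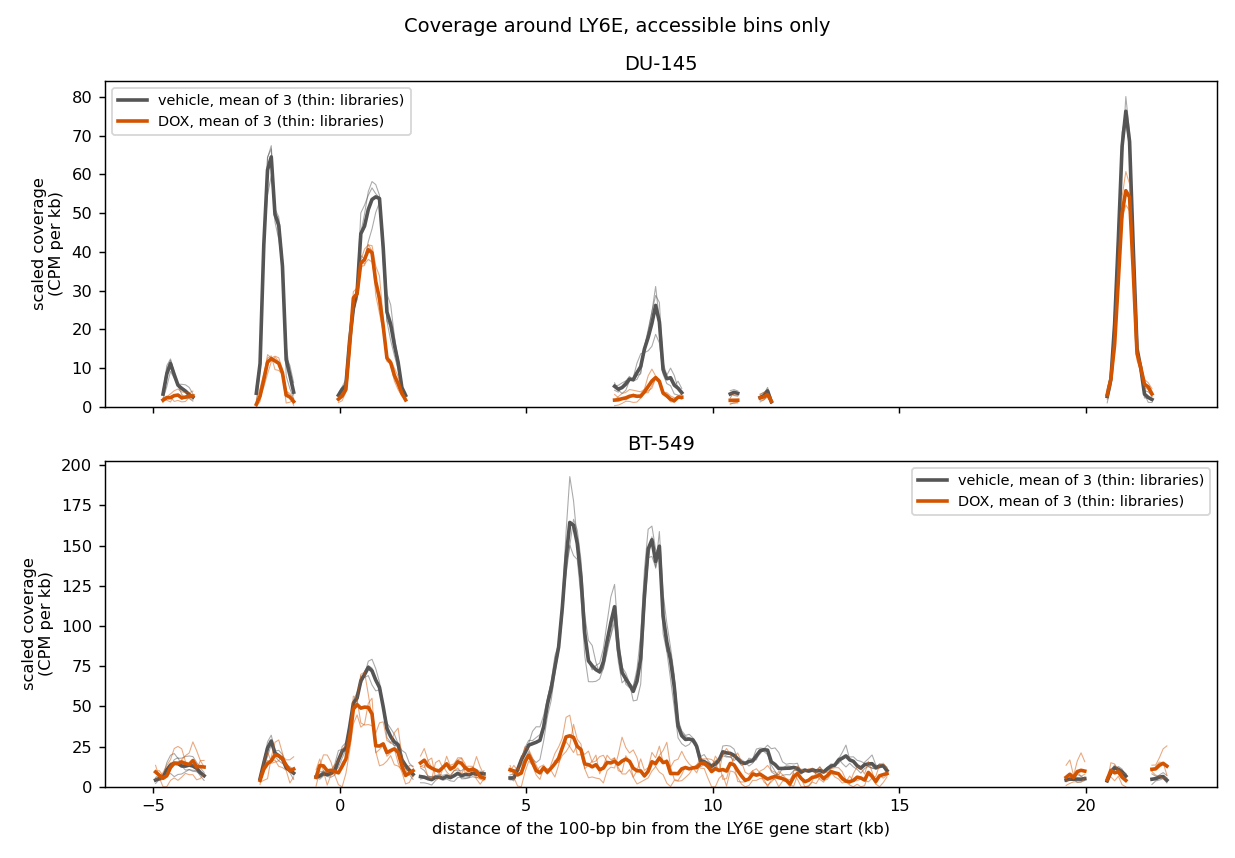
Coverage in CPM per kb (vertical axis) of each accessible 100-bp bin around LY6E against its distance from the gene start in kb (horizontal axis), with thin lines for libraries and thick lines for the mean of 3, gray for vehicle and orange for DOX. DU-145 lost its peak before the start, BT-549 lost its broad domain at 5 to 9 kb, and both kept a reduced promoter peak.

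The loss at LY6E did not cover every site of its window. In BT-549 a site within the gene body, 3.0 kb after the start (chr8:143020101-143021900), rose: it had 6.13, 7.29 and 6.72 CPM per kb with vehicle and 12.8, 11.2 and 11.1 with DOX (log2 change 0.79 ± 0.21 SE, adjusted p = 0.00589). With its highest bin alone the value was 1.03 and was not called (adjusted p = 0.122, edgeR). It was a weak site, with 3.24 fragments per base in the DOX libraries, and lay between the promoter and the broad domain. The weak site at 22.0 kb, in LINC02904, had a log2 change of 1.21 ± 0.40 (SE, adjusted p = 0.023) that was lost without vehicle replicate 2, vehicle replicate 3 or DOX replicate 1 (adjusted p = 0.132, 0.0651 and 0.189), and with the highest bin (1.09, adjusted p = 0.135). In DU-145 the site at the start of LINC02904, 21.2 kb away, fell slightly, from 27.7 to 22.5 CPM per kb (log2 change -0.30 ± 0.10 SE, adjusted p = 0.00955).

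Summed over the whole LY6E window, coverage in DU-145 was 140, 149 and 154 CPM with vehicle and 77.9, 88.6 and 81.5 with DOX, a change of -44.0%. In BT-549 it was 597, 625 and 581 CPM with vehicle and 275, 202 and 241 with DOX, a change of -60.1%. The DU-145 window sums of the 7 other members with a region lay between -12.7% for LYPD2 and 14.6% for LY6D.

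On the centromeric side DU-145 had no accessible region between the fallen site at 4.3 kb and one at 20.5 kb. The place where the fall ended can therefore not be seen. The next region before the LY6E window, 20.5 kb from the start and still in LY6E-DT (chr8:142997101-142997800), rose from 1.01 to 7.55 CPM per kb (log2 change 2.81 ± 0.28 SE, adjusted p = 2.6e-10). Peaks were called there in 0 of 3 vehicle libraries and in 3 of 3 DOX libraries. Areas were kept if at least 3 replicates had a peak, so this region could enter only through its DOX libraries. Neither its peak counts nor its rise is therefore independent of that filter. At 24.4 kb the log2 change was 0.58 (adjusted p = 0.00464, edgeR), and the next region on that side was not called (0.04, adjusted p = 0.847). On the telomeric side the first region beyond the window, at 30.2 kb, stood at 11.1 CPM per kb in both groups. In BT-549 the region at 30.4 kb was lower, from 20.3 to 13.3 CPM per kb (log2 change -0.62 ± 0.17 SE, adjusted p = 0.00542).

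By distance, all 4 DU-145 regions within 10 kb of the LY6E start were lower, and 2 of 9 were lower and 2 higher between 10 and 50 kb. Over 1 Mb on each side 35 of 164 were higher and 17 lower, with a median log2 change of 0.12. The shares over all regions of the line were 37.1% higher and 17.4% lower. In BT-549, 2 of 5 regions within 10 kb were lower and 1 was higher. Over 1 Mb 264 of 382 BT-549 regions were higher and 5 lower, with a median of 1.13, beside 12.2% higher and 18.0% lower over all regions.

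**Figure D3:**
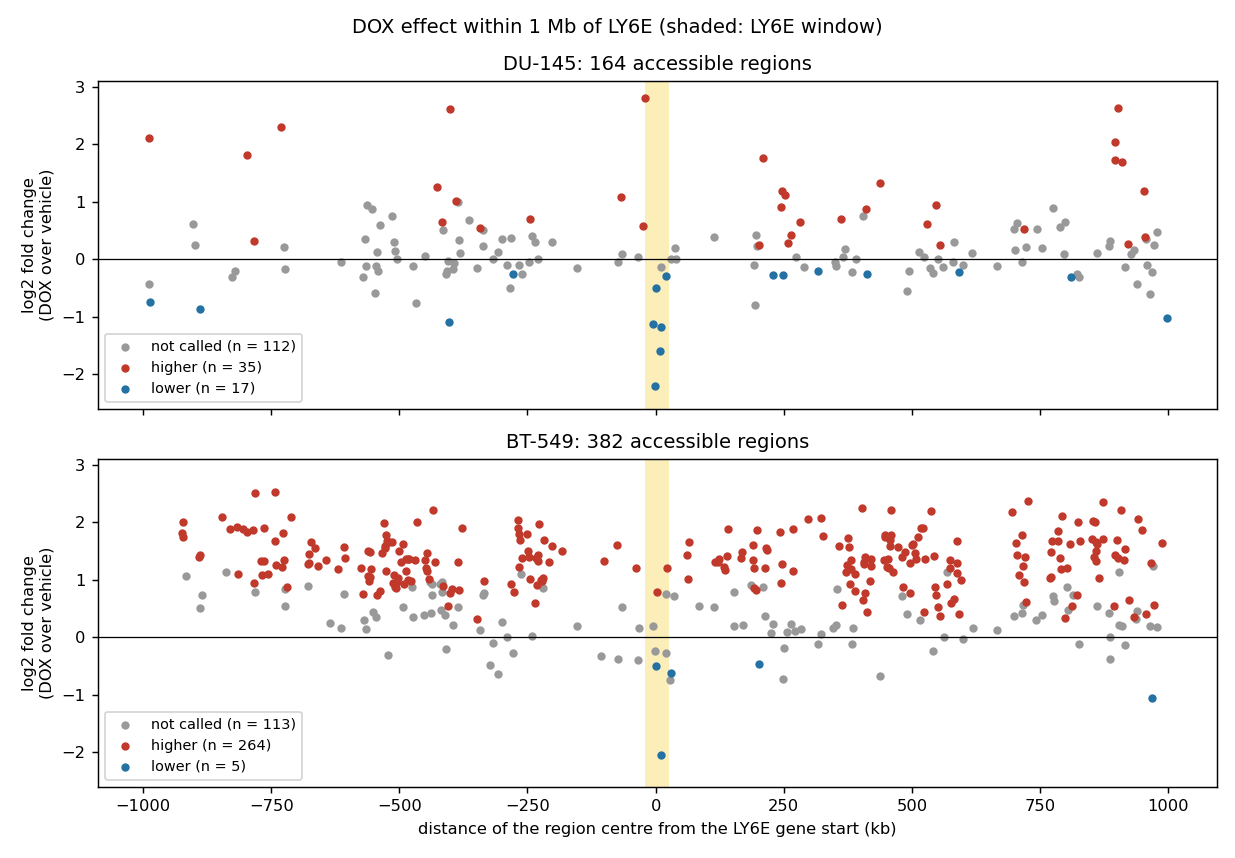
Log2 fold change of DOX over vehicle (vertical axis) of each accessible region within 1 Mb of the LY6E start (horizontal axis, kb), with the LY6E window shaded. In DU-145 the falls in the shaded window stand among values spread around 0, and in BT-549 among 264 higher regions.

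At the other surface antigens of the cluster the start regions were not called lower. PSCA (chr8:142670308-142682725, plus strand), the prostate stem cell antigen, shares its promoter region with JRK. In DU-145 this region had 22.1, 21.9 and 20.6 CPM per kb with vehicle and 21.3, 19.4 and 17.4 with DOX (log2 change -0.16 ± 0.11 SE, adjusted p = 0.202, edgeR), but it was called lower with TMM factors (-0.35, adjusted p = 0.00538). In BT-549 it had 37.3, 42.0 and 38.5 CPM per kb with vehicle and 51.7, 43.6 and 51.6 with DOX. The rise of 0.32 ± 0.12 (SE, adjusted p = 0.0374, edgeR) was lost without vehicle replicate 1, vehicle replicate 3, DOX replicate 1 or DOX replicate 3, with the trend of coverage with GC content removed (0.15, adjusted p = 0.379), with loess offsets (0.24, adjusted p = 0.126) and with the highest bin (0.18, adjusted p = 0.504).

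Within the PSCA body a DU-145 site (chr8:142675601-142676900) rose. It had 12.1, 10.7 and 11.7 CPM per kb with vehicle and 17.1, 17.0 and 16.0 with DOX, a log2 change of 0.54 ± 0.12 (SE, adjusted p = 0.00028). With TMM factors it was still called higher, at 0.35 (adjusted p = 0.0155).

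LY6K (chr8:142700111-142705127, plus strand), a testis-expressed antigen that many tumors re-express, had the most open promoter of the cluster in DU-145. Its coverage was 34.3, 39.8 and 40.7 CPM per kb with vehicle and 39.6, 39.7 and 35.4 with DOX, and the groups overlapped (adjusted p = 0.989, edgeR). In BT-549 it was 39.9, 41.1 and 37.8 against 35.4, 37.2 and 38.0 CPM per kb (log2 change -0.10 ± 0.11 SE, adjusted p = 0.498). The sign of the small LY6K values turned under other scalings in both lines, and RLE factors called the DU-145 promoter lower (-0.25, adjusted p = 0.0162) and loess offsets higher (0.21, adjusted p = 0.039).

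LY6D (chr8:142784882-142786539, minus strand), a GPI-anchored protein of squamous keratinocytes, had no region at its start in DU-145. The nearest one, 1762 bp away, stood at 3.0 CPM per kb with vehicle and 3.06 with DOX. In BT-549 its start region had 6.91, 5.31 and 8.46 CPM per kb with vehicle and 12.3, 9.35 and 16.4 with DOX (log2 change 0.90 ± 0.24 SE, adjusted p = 0.00577), a call lost without vehicle replicate 2 (adjusted p = 0.0508) or DOX replicate 3 (adjusted p = 0.081). The adjoining region on the telomeric side (chr8:142787001-142788400) had 6.05, 5.56 and 5.86 CPM per kb with vehicle and 16.7, 14.2 and 16.3 with DOX, and its log2 change of 1.44 ± 0.23 (SE, adjusted p = 1.8e-05) was called with each library left out.

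The next members act on nicotinic acetylcholine receptors or are related to proteins that do. LYNX1 (chr8:142771197-142777810, minus strand) encodes a membrane-bound modulator of these receptors. In DU-145 its start region was among the weakest, with 1.88, 2.93 and 2.06 CPM per kb with vehicle and 3.97, 2.84 and 2.63 with DOX (log2 change 0.40 ± 0.29 SE, adjusted p = 0.26). In BT-549 the start region had 15.4, 13.8 and 20.6 CPM per kb with vehicle and 25.0, 10.6 and 14.5 with DOX, and the DOX libraries lay on both sides of the vehicle libraries (adjusted p = 0.966, edgeR). A site in the LYNX1 body was called higher in DU-145 (0.69 ± 0.29 SE, adjusted p = 0.042), with overlapping groups. This call did not last with TMM, RLE or loess scaling, DESeq2 or the highest bin (0.14 to 0.50, adjusted p = 0.146 to 0.833), nor without vehicle replicate 2 or 3 or DOX replicate 1 or 3 (0.37 to 0.67, adjusted p = 0.0887 to 0.328).

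SLURP1 (chr8:142740949-142742406, minus strand) encodes a secreted keratinocyte protein whose loss causes a palmoplantar skin disease. A BT-549 region at its start had 7.13, 5.29 and 8.11 CPM per kb with vehicle and 10.1, 9.89 and 14.9 with DOX (log2 change 0.78 ± 0.24 SE, adjusted p = 0.0132). The highest bin of that region alone gave -0.60 (adjusted p = 0.483, edgeR), and the call was lost with the GC trend removed (0.62, adjusted p = 0.0577) and without vehicle replicate 2 (adjusted p = 0.0898) or DOX replicate 3 (adjusted p = 0.135). A strong site between SLURP1 and THEM6 was similar in both lines. In DU-145 it had 24.5, 28.9 and 26.4 CPM per kb with vehicle and 19.7, 24.3 and 22.6 with DOX (log2 change -0.26 ± 0.09 SE, adjusted p = 0.0106). Among the regions of the member windows, it was the only one outside the LY6E window called lower with summed bin values as library size. This call was lost with loess offsets (-0.05, adjusted p = 0.617) and without vehicle replicate 2 (adjusted p = 0.108) or DOX replicate 1 (adjusted p = 0.0812). In BT-549 it had 32.7, 32.7 and 31.6 against 25.4, 27.6 and 27.5 CPM per kb (log2 change -0.27 ± 0.10 SE, adjusted p = 0.0518). Another DU-145 region of the SLURP1 window, at -290.7 kb, was not called (-0.10, adjusted p = 0.262, edgeR). It was called lower with TMM (-0.29, adjusted p = 0.00149), RLE (-0.34, adjusted p = 0.000263) and DESeq2 (-0.34, adjusted p = 8.45e-05). With loess offsets it was called higher (0.22, adjusted p = 0.0104).

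LYPD2 (chr8:142750150-142752532, minus strand), a less studied relative, rose in BT-549. The region in its body had 6.83, 2.92 and 3.79 CPM per kb with vehicle and 13.1, 15.9 and 19.1 with DOX, a log2 change of 1.80 ± 0.36 (SE, adjusted p = 0.000323). In DU-145 the same site had 3.93, 2.38 and 1.74 against 2.65, 2.81 and 2.13 CPM per kb (adjusted p = 0.842, edgeR), and the difference between the lines was 1.68 ± 0.49 (log2, SE, adjusted p = 0.00561).

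LY6H (chr8:143157914-143160711, minus strand), a brain-expressed member on the telomeric side of LY6E, had no accessible region in its window in DU-145. In BT-549 it had 8, of which 6 were higher and 0 lower. The region nearest to its start (chr8:143158001-143159000) had 4.79, 4.08 and 4.97 CPM per kb with vehicle and 21.7, 16.0 and 13.8 with DOX, a log2 change of 1.89 ± 0.27 (SE, adjusted p = 6.1e-06). Each DOX library was above each vehicle library. None of the 8 was lower at an unadjusted p under 0.05, nor with DESeq2.

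GML (chr8:142834247-142916506, plus strand), a p53-inducible GPI-anchored relative, had 2 regions in DU-145, neither of them called. The nearer one was 17547 bp from its start (log2 change 0.30 ± 0.17 SE, adjusted p = 0.141). In BT-549 the region at its start had 3.04, 4.11 and 5.8 CPM per kb with vehicle and 19.0, 8.82 and 8.86 with DOX (log2 change 1.49 ± 0.41 SE, adjusted p = 0.00621). One DOX library stood well above the other two, and without it (DOX replicate 1) the log2 change was 1.02 (adjusted p = 0.0854, edgeR). Without vehicle replicate 1 it was 1.28 (adjusted p = 0.0629, edgeR).

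**Figure D4:**
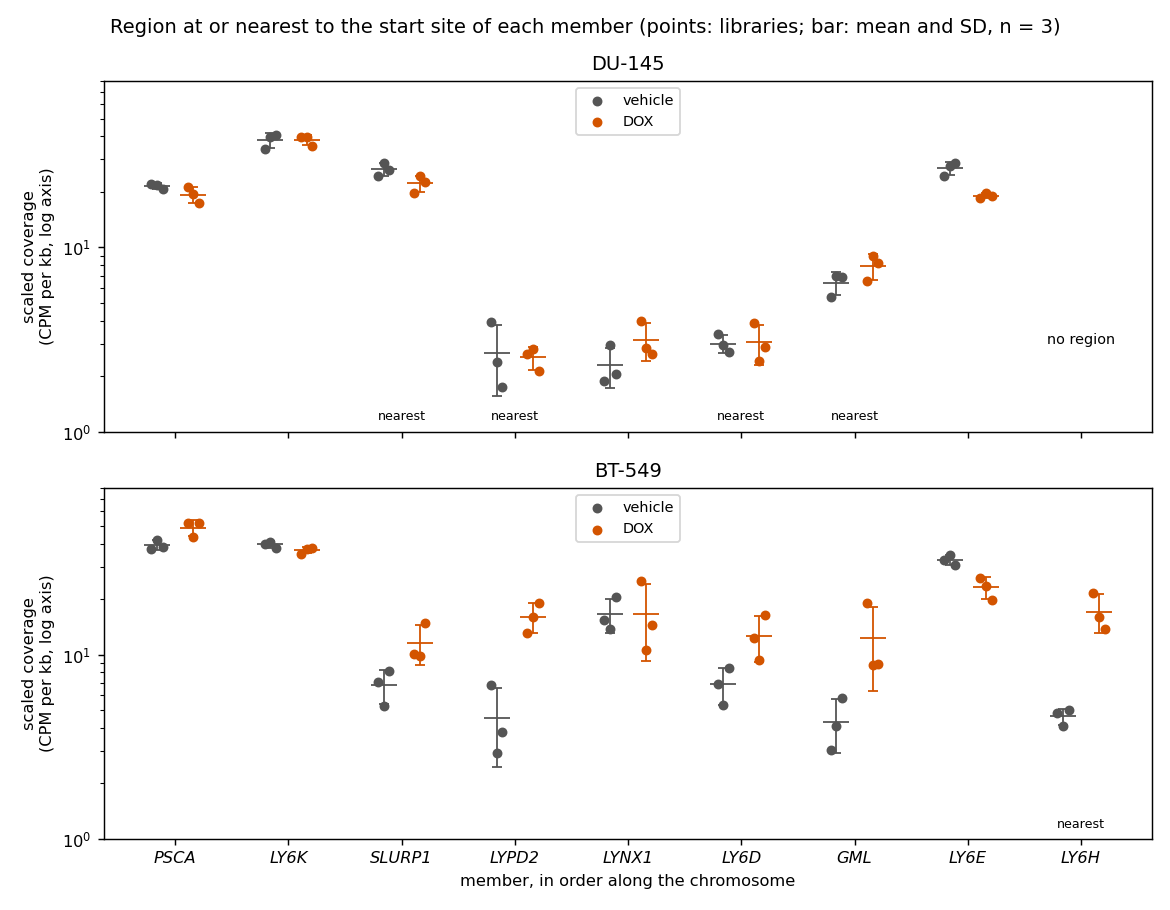
Coverage in CPM per kb (vertical axis, log scale) of the region at the start of each member, or of the nearest region in its window where marked, in each library (points) with the mean and SD of 3 libraries, gray for vehicle and orange for DOX. In both lines the DOX libraries of LY6E lie below the vehicle libraries, and in BT-549 those of PSCA, SLURP1, LYPD2, LY6D, GML and LY6H lie above. The share of all regions that separate in this way is not given. The BT-549 calls at PSCA, SLURP1, LY6D and GML were lost when some single libraries were left out.

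For the 8 members other than LY6E together, DU-145 had 21 regions, of which 2 were higher and 1 lower, with a median log2 change of 0.13 (0.24 over all regions). With TMM factors the median was -0.06, and 1 was higher and 3 lower. BT-549 had 49 regions, of which 33 were higher and 0 lower, with a median of 1.03 (-0.10 over all regions). DESeq2 also called 0 of these 49 lower, and 1 had a lower value at an unadjusted p under 0.05 with edgeR. By member, 15 of 18 BT-549 regions were higher in the LYNX1 window, 14 of 16 for LY6D, 12 of 14 for LYPD2, 8 of 11 for SLURP1, 6 of 8 for LY6H, 3 of 5 for GML, 2 of 7 for PSCA and 1 of 7 for LY6K, with regions counted more than once where windows overlap. Of all 57 regions, 7 of the 12 within 1 kb of a member's annotated transcript start were higher and 2 lower, and 7 of 10 at the start of another gene and 21 of 35 elsewhere were higher with 0 lower. These classes were not tested against each other.

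Most of the higher BT-549 regions had low coverage. The median of the 49 regions was 5.95 CPM per kb with vehicle and 13.4 with DOX, but in fragments per base it was 6.9 and 3.64, since the DOX libraries were shallower. A peak was called in at least 1 DOX library at 45 of the 49. Of all 57 regions, 44 had a peak in all 3 vehicle libraries and 25 in all 3 DOX libraries. When all regions of the line were divided into 4 equal classes by mean coverage, 31 of the 37 cluster regions in the second lowest class were higher, beside 11.0% of that class. In the lowest class 0 of 6 were higher, beside 0.708%, and in the second highest 3 of 7, beside 13.5%. In the highest class 1 of 7 was higher and 2 were lower, beside 23.5% and 13.1%. Without DOX replicate 1, 20 of the 49 and 21 of the 57 were called higher, beside 5039 of all 46298 regions. With only the highest bin of each region, 17 of the 49 were, beside 3539 of all 46298.

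The rise was not particular to the cluster. The 5-Mb segment of chromosome 8 that begins at 140 Mb held 711 BT-549 regions, of which 440 (61.9%) were higher and 11 (1.55%) lower, with a median log2 change of 0.99. In the adjoining segment that begins at 135 Mb, 9 of 35 regions (25.7%) were higher with a median of 0.34, and in the one at 130 Mb 9.93% of 151 were. In DU-145 the segment at 140 Mb held 341 regions, of which 82 were higher and 41 lower. The part that copy number, depth or background coverage had in this rise was not tested.

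Where both lines had the same open bins, their responses could be compared directly. Of 29 such runs of bins in the windows, 8 differed in their DOX effect in a joint fit (5 higher in BT-549 and 3 lower), beside 11.3% higher and 27.3% lower over all 32671 runs. With TMM factors 7 were higher and 3 lower, and over all runs 6284 and 6899 against 3696 and 8915. The LY6E promoter run was not among them, with a difference of -0.28 ± 0.16 (BT-549 minus DU-145, log2, SE, adjusted p = 0.172, edgeR), though it passed with loess offsets (-0.40, adjusted p = 0.0467). The site 1.7 kb before the start differed by 1.80 ± 0.25 (SE, adjusted p = 1.5e-07): coverage went from 45.1 to 10.6 CPM per kb in DU-145 and from 19.7 to 16.1 in BT-549, with the library size taken over shared bins. The site 8.3 kb after the start differed by -1.37 ± 0.23 (SE, adjusted p = 7.91e-06). There coverage went from 13.8 to 4.88 CPM per kb in DU-145 and from 111 to 15.0 in BT-549.

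**Figure D5:**
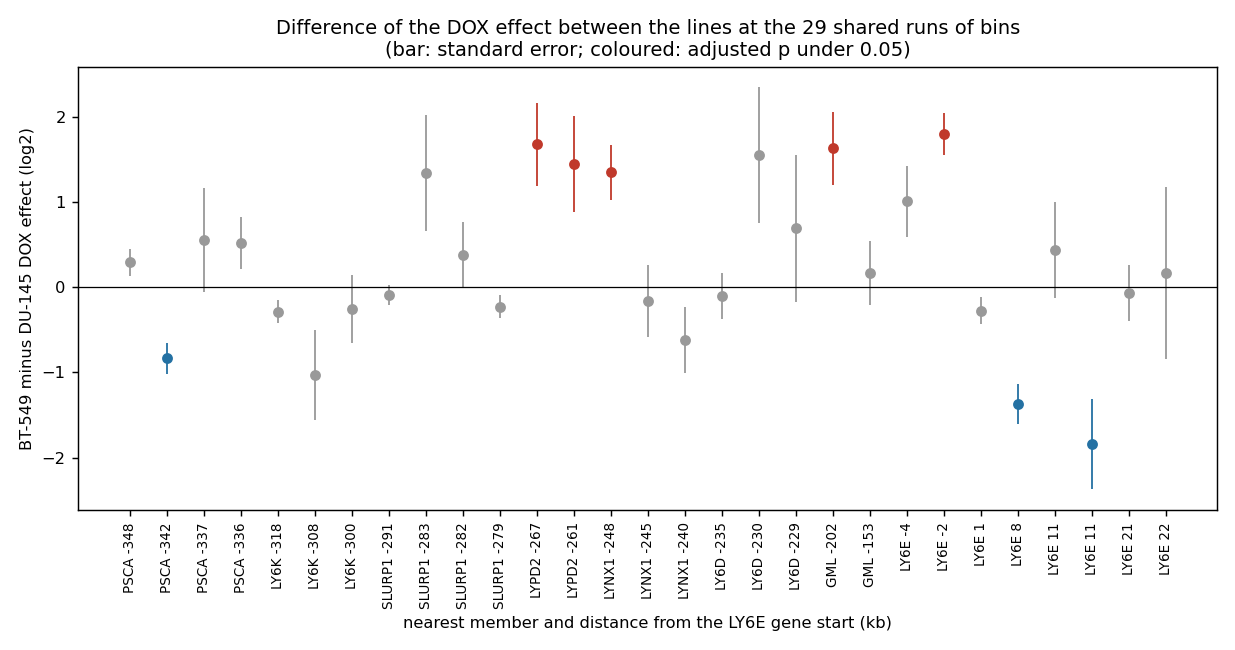
Difference of the log2 DOX effect between the lines (BT-549 minus DU-145, vertical axis, bars are standard errors) at each of the 29 shared runs of bins, labeled by the nearest member and the distance from the LY6E start in kb (horizontal axis). Blue and red mark the 3 lower and 5 higher differences with an adjusted p under 0.05, and the LY6E runs stand on both sides of 0.

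The lines already differed before treatment. In the vehicle groups, 14 of the 29 runs were more open in BT-549 and 5 in DU-145, beside 46.5% and 26.2% over all runs. With TMM factors these were 13 and 6 in the windows, and 11467 and 11419 against 15194 and 8547 over all runs. Copy number and accessibility cannot be told apart in this contrast. The site 8.3 kb after the LY6E start was higher in BT-549 by 3.01 ± 0.14 (log2, SE, adjusted p = 3.9e-22), and the site 1.7 kb before the start was lower there (-1.19 ± 0.14 SE, adjusted p = 1.39e-09). In each line the region of the LY6E window with the highest vehicle coverage was the one with the largest fall. The LYNX1 promoter was higher in BT-549 by 2.94 ± 0.26 (SE, adjusted p = 4.38e-13), and the LY6E promoter by 0.55 ± 0.10 (SE, adjusted p = 1.18e-05). The start of LINC02904 was lower in BT-549, at -2.21 ± 0.18 (SE, adjusted p = 1.76e-14).

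The regions most like the LY6E promoter across the 6 libraries of a line, by Pearson correlation of log2(CPM per kb + 1), were 8.3 kb after (r = 0.989), 1.7 kb before (r = 0.969) and 21.2 kb after its start (r = 0.939) in DU-145. In BT-549 they were the broad region (r = 0.871), the site between THEM6 and SLURP1 (r = 0.783) and the weak site at 20.8 kb (r = 0.749). These are descriptions over libraries that share the same 2 groups.

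AP-1 is the JUN and FOS family of transcription factors, whose best-known motif is TGACTCA, or TGAGTCA in its other form. These letters, searched on both strands, occurred in 9 of the 28 DU-145 regions (32.1%) and 15 of the 57 BT-549 regions (26.3%), beside 38.5% and 27.1% of all regions of the lines. The LY6E promoter regions held no match. The fallen region at 8.3 kb in DU-145 and the broad region in BT-549 held the same single match, 8517 bp after the LY6E start. The bin that holds it fell by 1.73 on the log2 scale in DU-145 (adjusted p = 1.38e-08) and by 3.05 in BT-549 (adjusted p = 2.61e-20), whereas the site 1.7 kb before the start, which fell most in DU-145, held none. The 2 higher DU-145 regions of the member windows, in PSCA and LYNX1, both held matches. The bins with the 2 PSCA matches rose, by 0.70 (adjusted p = 0.00691) and 0.59 (adjusted p = 0.000166), but the bin with the LYNX1 match had a log2 change of -0.19 (adjusted p = 0.844). A match describes letters in a window and not the binding of a factor.

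Relatives of the cluster genes elsewhere were described from a list of 29 LY6/uPAR family genes, with the windows of the 9 members left out. In DU-145, 16 of 60 regions within 20 kb of these genes were higher and 6 lower, beside 37.1% and 17.4% over all regions, and the median log2 change was 0.16 (0.24 over all regions). In BT-549, 26 of 59 were higher and 4 lower, beside 12.2% and 18.0%, and the median was 0.52 (-0.10 over all regions). GPIHBP1, which carries lipoprotein lipase across capillary cells, had 9 of 13 BT-549 regions higher, and LY6L had 3 of 4, both on chromosome 8. On other chromosomes 14 of 39 BT-549 regions were higher and 2 lower, with a median of 0.26. PLAUR, the urokinase receptor, had 2 of 2 higher there, and 1 of 4 in DU-145. CD59, the complement inhibitor, had 2 of 4 regions higher in BT-549 and 3 of 7 in DU-145, where 1 was lower.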

How the data were processed

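Analyzed were 12 ATAC-seq libraries of DU-145 or BT-549 cells that carried the inducible MUC1 shRNA, 3 per line and condition. The study describes the replicates as biologically independent, and the labels call the control libraries both vehicle-treated and untreated. The authors aligned reads to GRCh38 with BWA, removed duplicates with Picard and called peaks per library with MACS2 version 2.2.7.1, which the submitters' processing notes list beside MACS3. They merged the peaks, kept areas found in at least 3 replicates, divided them into 100-bp bins and averaged fragment coverage over each bin. The deposited bin values of each line are therefore estimated counts and not whole numbers, and they were rounded after being summed per region. The authors' peak lists give a fold enrichment (a ratio over local background) and the -log10 of p and q for each peak, and were used only to say in how many libraries a region had a peak and how strong it was.

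Bins were joined into regions where they touch, and regions with a total of at least 10 over 6 libraries were kept, which removed none. Library size was the sum of a library's bin values. Each line was fitted with edgeR version 4.0.16 (robust quasi-likelihood) in R version 4.3.3, and the lines together over bins present in both tables. P-values set the difference between groups against the spread between these libraries, with the estimate of that spread partly shared across regions. Genes came from GENCODE version 44 on GRCh38, the build of the bins. The 9 members, the lists of relatives and markers and the tests were chosen with earlier results of these data known. For each member and line, the region within 1 kb of its start or else the nearest one, and up to 3 others with the smallest adjusted p, were eligible to be named with values. Regions beside the LY6E window were chosen after their values were seen. Alternatives were TMM, RLE and loess scaling, a GC correction, DESeq2 version 1.42.0, other filters, windows and cutoffs, single bins, the highest bin, a replicate block and each library left out. The fits were tested on simulated data. No sequence of chromosome 8 is printed. The correlations between deviations of same-numbered vehicle and DOX libraries ranged from -0.035 to 0.069, so the numbers were not taken to pair the libraries.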

Additional observations from a re-analysis of the deposited data

Results flagged for a closer look

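There were 8 runs of bins present in both tables that had a DOX effect that differed between the lines, by the interaction term of the joint edgeR fit at an adjusted p under 0.05. All values are BT-549 minus DU-145 on the log2 scale. The response was higher in BT-549 at 5 of them, with 1.80 ± 0.25 (SE) at the site 1.7 kb before the LY6E start, 1.68 ± 0.49 in the LYPD2 body, 1.45 ± 0.57 on the telomeric side of LYPD2, 1.35 ± 0.33 in SLURP2 and 1.63 ± 0.43 before GML. It was lower in BT-549 at 3 of them, with -0.83 ± 0.18 in the PSCA body, -1.37 ± 0.23 at 8.3 kb and -1.84 ± 0.53 at 11.4 kb after the LY6E start. With the library size taken over shared bins, coverage at the PSCA site went from 15.5 to 24.4 CPM per kb in DU-145 and from 44.9 to 39.8 in BT-549. In the fit of BT-549 alone, the region that holds this site had a log2 change of 0.12 (adjusted p = 0.465, edgeR). Before GML the coverage over shared bins went from 10.0 to 9.75 in DU-145 and from 5.57 to 15.9 in BT-549. The value on the telomeric side of LYPD2 was past the threshold in only 4 of the 12 fits with 1 library left out, and that at 11.4 kb was not with loess offsets (-1.10, adjusted p = 0.114). Groups of 3 libraries are too small to test a single library for standing apart.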

How the results depend on the processing

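The fall of the LY6E promoter region kept its direction and its call under each other scaling, filter and fit and with each library left out, from -0.39 to -0.74 in DU-145 and from -0.40 to -0.70 in BT-549 (log2). The study's cutoffs need a fold of 2 and were set for single bins. Applied here to the whole region, they did not call it in either line. In BT-549 the bins 0.97 and 1.07 kb after the start had log2 changes of -1.41 and -1.36 (adjusted p = 6.24e-05 and 0.000215, edgeR). In DU-145 the lowest log2 change of a bin in the promoter region was -0.96. Of the values for single named regions, 744 were unchanged in direction and call, 50 lost and 25 gained a call, and 51 changed sign, with the cause not tested beyond what each setting does.

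Counts of called regions moved as follows. The study's cutoffs (a fold of 2 with a stricter adjusted p) were applied to whole regions here. In DU-145, over all windows, the 2 higher regions became 1 with TMM, RLE or DESeq2, 18 single bins and 0 at the study's cutoffs. The 7 lower ones became 11 with loess, 57 single bins, 2 at those cutoffs and 4 in 2-kb windows. In the LY6E window the 0 higher and 6 lower became 2 and 45 single bins, and the 6 became 2 at the cutoffs and 3 in 2-kb windows. For the other 8 members the 2 higher became 1 with TMM, RLE or DESeq2, 16 single bins and 0 at the cutoffs, and the 1 lower became 3 with TMM, 4 with RLE, loess or DESeq2, 2 with the highest bin, 12 single bins and 0 at the cutoffs. In BT-549 the 35 higher became 17 with the highest bin, 99 single bins, 21 at the cutoffs and 19 in 2-kb windows, and the 2 lower became 62 single bins and 1 at the cutoffs, and 3 with loess, the GC correction or the highest bin. In the LY6E window the 2 higher became 0 with the highest bin or the cutoffs and 1 with single bins, 10-kb or 2-kb windows, and the 2 lower became 56 single bins and 1 at the cutoffs. For the other 8 members the 33 higher became 17 with the highest bin, 98 single bins, 21 at the cutoffs and 18 in 2-kb windows, and the 0 lower became 1 with loess, the GC correction or the highest bin and 6 single bins. With loess the line differences were 9 higher and 6 lower in BT-549 instead of 5 and 3.

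With 1 library left out, the DU-145 counts ranged from 1 (without vehicle replicate 2 or 3, or DOX replicate 1 or 3) to 3 (without vehicle replicate 1) higher over all windows and for the other 8 members, and from 0 (without vehicle replicate 2 or DOX replicate 1) to 1 lower for the latter. In BT-549 they ranged from 21 to 38 higher over all windows, 1 to 3 in the LY6E window and 20 to 36 for the other 8 members, each lowest without DOX replicate 1, and in the LY6E window also without vehicle replicate 2 or 3.

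The sign of these values, most of them within their standard error of 0, turned. With loess in DU-145 the PSCA site at -364.4 kb gave -0.25, LY6K 0.21 at its start and -0.072 and -0.58 at -299.7 and -307.5 kb, SLURP1 -0.028 and 0.22, LYNX1 -0.13 and LY6D -0.65 and -0.023. In BT-549 SLURP1 at -290.6 kb gave -0.16, and the vehicle contrast at 21.8 kb gave -0.66. RLE and DESeq2 gave -0.016 and -0.020 at PSCA (-336.1 kb), -0.12 and -0.12 at LY6K (-307.5 kb), -0.25 (RLE) and -0.24 (DESeq2) at LY6D in DU-145, and 0.0043 and 0.0042 at the BT-549 LY6K start. TMM gave -0.065 at LY6K, -0.19 at LY6D and 0.00077 at the BT-549 LY6K start. The GC correction gave 0.010 and -0.025 at LY6K in DU-145, and -0.18 at SLURP1 and -0.21 at LYNX1 in BT-549. The highest bin gave 0.050 and -0.13 at LY6K in DU-145, and -0.60 at the SLURP1 start, -0.16 at SLURP1 (-290.6 kb) and -0.38 at LYNX1 in BT-549. With 1 library left out the ranges were -0.074 to 0.052 (LY6K), -0.28 to 0.22 and -0.60 to 0.0088 (LYPD2), -0.15 to 0.11 (LYNX1) and -0.20 to 0.16 (LY6D) in DU-145, and -0.13 to 0.068 (SLURP1), -0.37 to 0.24 (LYNX1) and -0.60 to 0.020 (GML) in BT-549.

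The replicate numbers did not pair the libraries. With the replicate block, DU-145 had 2 higher and 6 lower regions in the windows (5 lower at LY6E), and BT-549 had 33 higher and 2 lower. The sign turned at LY6K (0.00027) and LY6D (-0.011) in DU-145 and at SLURP1 (-0.0065) and LYNX1 (-0.022) in BT-549. For the vehicle contrast no block was run, since its numbers are nested in the lines.

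Depth limits the BT-549 DOX values. The 49 regions of the other 8 members had a median of 3.64 fragments per base there, and values were rounded to whole numbers per region.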
